A study of Mus musculus with 9 samples.

Results

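The splicing machinery of lung endothelial cells was compared between Tie1-WT mice, with wild type Tie1, and Tie1-CR mice, whose Tie1 protein is resistant to being cut by proteases. Tie1 is an endothelial receptor that modulates angiopoietin signalling. The genes were those whose symbol starts with Srsf, Hnrnp, Sf3, Snrp or Prpf, together with the kinase genes Clk1, Clk2, Clk3 and Clk4. This rule took 60 of the 9277 genes in the table, and all 60 passed the filter on low values. They fell into 9 Srsf, 4 Clk, 18 Hnrnp, 9 Sf3, 7 Snrp and 13 Prpf genes. RNA came from endothelial cells of mouse lung, with 4 libraries of genotype Tie1-WT and 5 of genotype Tie1-CR. Every library name carries PBS, a buffer, so both genotypes share that label. The sources used here give no age, no pooling of animals and no method of cell isolation. No label states whether replicates are different mice, and p-values therefore describe only how these libraries vary. The numbers in the library names run in order of genotype, and no label says what they count. Anything that follows these numbers cannot be told apart from genotype. The comparison asks how the RNA of these cells differs between the genotypes.

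Introns are removed from pre-mRNA by the spliceosome, a machine of small nuclear RNAs and proteins that assembles anew on each intron. SR proteins (Srsf genes) bind exons and recruit it, hnRNP proteins coat nascent RNA and often oppose that recruitment, and the CLK kinases phosphorylate SR proteins and so release them from nuclear speckles. The SF3 proteins recognise the branch point, the Snrp genes encode proteins bound to the small nuclear RNAs, and the Prpf genes encode factors that activate the assembled complex. Many of these genes limit their own protein by making transcripts that carry a premature stop or a retained intron.

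The promoters of 4 members that the results turn on are shown first. Srsf2 passed the test of difference, Srsf5 and Hnrnpa2b1 had libraries that separated by genotype without passing it, and Prpf40b was the only member whose libraries separated in the other direction. These 4 were chosen after their values were seen. The sequences are from RefSeq (GRCm38.p6) and give the 250 bases before the RefSeq start, 5′ to 3′ on the gene's strand. For Prpf40b, 154 of these bases, with the CCAAT box, lie inside the gene as GENCODE annotates it. The whole Srsf2 window lies within 2 annotated genes of the opposite strand, Mettl23 (116843278 to 116854263) and Mfsd11 (116852440 to 116875635). Overlap of the other windows with other genes was not checked. Capitals mark matches to any of 5 motifs searched on both strands, with no overlap between matches here.
Srsf2, chr11:116853095-116853344, minus strand: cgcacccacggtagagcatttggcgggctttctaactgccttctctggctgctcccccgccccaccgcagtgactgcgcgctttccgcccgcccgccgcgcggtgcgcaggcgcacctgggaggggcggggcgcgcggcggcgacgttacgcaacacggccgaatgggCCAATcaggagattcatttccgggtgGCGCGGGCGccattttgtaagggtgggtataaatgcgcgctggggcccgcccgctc
Srsf5, chr12:80945249-80945498, plus strand: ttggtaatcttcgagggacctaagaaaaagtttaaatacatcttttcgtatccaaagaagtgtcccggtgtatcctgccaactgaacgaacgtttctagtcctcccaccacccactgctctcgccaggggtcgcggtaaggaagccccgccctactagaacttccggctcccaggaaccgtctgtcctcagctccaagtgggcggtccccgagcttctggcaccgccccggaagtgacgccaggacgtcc
Hnrnpa2b1, chr6:51469895-51470144, minus strand: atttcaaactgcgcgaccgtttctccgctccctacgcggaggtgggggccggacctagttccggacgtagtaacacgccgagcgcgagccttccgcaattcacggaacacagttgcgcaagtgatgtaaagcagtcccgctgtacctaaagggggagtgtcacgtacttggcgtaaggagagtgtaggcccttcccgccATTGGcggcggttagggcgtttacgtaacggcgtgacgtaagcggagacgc
Prpf40b, chr15:99294991-99295240, plus strand: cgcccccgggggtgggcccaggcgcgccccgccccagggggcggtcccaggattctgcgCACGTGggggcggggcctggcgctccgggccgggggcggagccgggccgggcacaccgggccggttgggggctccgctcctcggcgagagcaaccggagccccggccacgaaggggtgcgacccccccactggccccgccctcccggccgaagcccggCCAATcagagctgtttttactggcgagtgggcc

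The motifs were the CREB/ATF element TGACGTCA, the AP-1 element TGANTCA, the EGR element GCGNGGGCG, the CCAAT box CCAAT and the E-box CACGTG. The Srsf2 window held an EGR element that starts 56 bases before the gene's start and a CCAAT box at 82 bases. Of 52 members with a promoter in the RefSeq table, 3 held the EGR element (5.77%), against 4.7% of all 32851 promoter entries. The CCAAT box stood in 23 of the 52 (44.2%) and in 33.8% of all entries. The remaining shares were 3.85% against 1.55% for the CREB/ATF element, 3.85% against 6.75% for the AP-1 element and 9.62% against 6.02% for the E-box. The Srsf5 window held none of these letters. A match is a description of the sequence and was not related to the expression values.

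Levels are given in CPM, which set the reads of a gene against all counted reads of its library, and differences as Tie1-CR minus Tie1-WT on the log2(CPM + 1) scale. Each gene was tested with limma over all 9277 genes with Benjamini-Hochberg adjustment, and a gene passed at an adjusted p below 0.05. Of the 60 members, 0 rose and 2 fell in Tie1-CR, the SR protein gene Srsf2 and the kinase gene Clk1. Over all genes 1.28% passed as higher and 2.77% as lower, so the members' share of 2 in 60 lies near the background. At an unadjusted p below 0.05, 0 members were higher and 16 were lower (26.7%), against 8.27% of all genes higher and 14% lower. The differences were small throughout, from -0.35 to 0.13 log2, with a median of -0.08 against -0.03 over all genes. In all, 48 of the 60 members lay below 0 (80.0%), as did 58.5% of all genes, and 41 lay below the median of all genes. Every Tie1-CR library lay below every Tie1-WT library in 11 members (18.3%, against 6.74% of all genes) and above in 1 (1.67%, against 3.74%). The members varied less within genotypes than genes at large (median SD 0.0492 against 0.0842 log2 in Tie1-WT, 0.0901 against 0.107 in Tie1-CR). A shift of a given size therefore separates them, or reaches a low p, more easily. The part of this in the shares above was not tested.

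**Figure D1:**
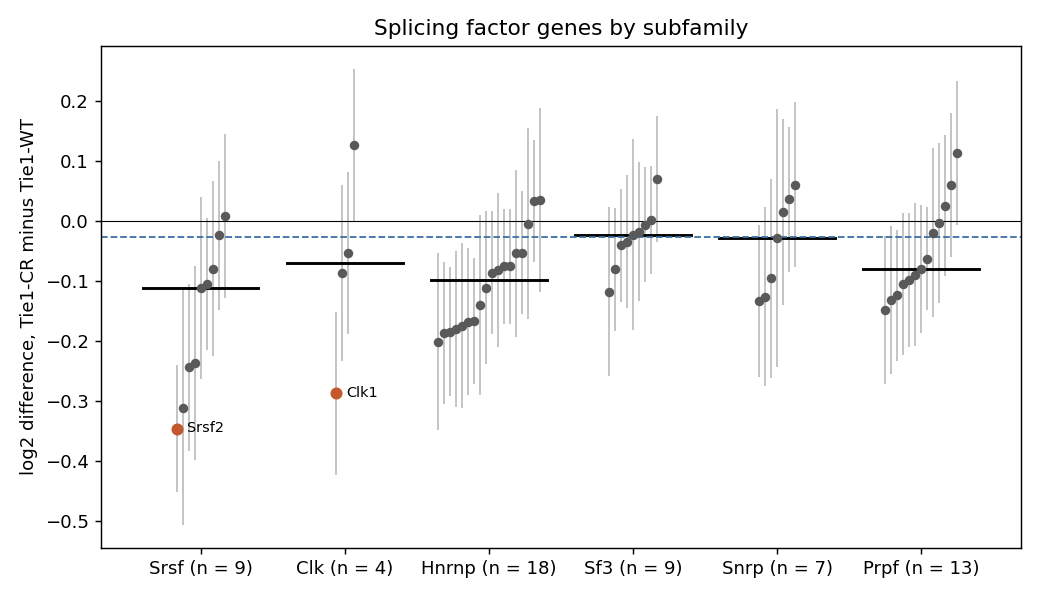
Log2 difference (Tie1-CR minus Tie1-WT) of each of the 60 genes by subfamily, with 95% intervals from limma as grey bars, subfamily medians as black lines and the median of all 9277 genes as a dashed line. Orange points are the 2 genes that passed, Srsf2 and Clk1, and the Sf3 and Snrp medians lie next to the dashed line of all genes.

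The SR protein genes had the lowest median of the 6 subfamilies, -0.11 log2 over 9 genes, 8 of them below 0. The Hnrnp median was lower with quantile normalization, with library weights and without Tie1-CR replicate 4. Srsf2, an SR protein gene that acts on exon inclusion and on transcription elongation, lies on chromosome 11 from 116849901 to 116853094 (GRCm38). It measured 267, 262, 254 and 244 CPM in the 4 Tie1-WT libraries and 213, 201, 190, 200 and 204 CPM in the 5 Tie1-CR libraries. The highest Tie1-CR library was therefore below the lowest Tie1-WT library. Srsf2 fell by 0.35 log2 (SE 0.05; limma adjusted p = 0.00485), with means of 257 ± 10.03 CPM (SD, n = 4) in Tie1-WT and 202 ± 8.52 CPM (SD, n = 5) in Tie1-CR. The fold between genotypes was 1.27. The call held under all 19 alternative settings, with differences between -0.37 and -0.30 and adjusted p values between 0.00207 and 0.0317.

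Srsf2 shares exon sequence with genes on the opposite strand. Mettl23, a methyltransferase gene, overlaps 460 bases of Srsf2 exons (15.6% of their length), and Mfsd11, a gene of the transporter superfamily, overlaps 288 bases (9.74%). Whether the counting used strand is not given in the sources used here, so reads in these stretches cannot be assigned with certainty. Mettl23 measured 60.9, 53.3, 57.7 and 51.3 CPM in Tie1-WT and 36.9, 52.8, 38.1, 42.6 and 38.2 CPM in Tie1-CR, and it also fell, by 0.42 log2 (SE 0.10; limma adjusted p = 0.0386). Its groups overlapped through Tie1-CR replicate 2. Mfsd11 measured 48.5 ± 2.36 CPM (SD, n = 4) and 47.9 ± 1.98 CPM (SD, n = 5), with a difference of -0.02 (95% interval -0.13 to 0.09). The part of the overlap in the Srsf2 difference was not tested.

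Srsf5, an SR protein gene that responds to growth signals, had the second largest difference in size but did not pass. It measured 573, 529, 539 and 551 CPM in Tie1-WT and 373, 504, 402, 507 and 437 CPM in Tie1-CR, with no overlap between the genotypes. The Tie1-CR libraries spread more widely than the Tie1-WT libraries (SD 59.99 against 18.9 CPM), and the difference of -0.31 log2 (SE 0.09) had a limma adjusted p of 0.0729. It passed with library weights (limma adjusted p = 0.0251) and without Tie1-CR replicate 2 (0.0481).

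Srsf3, which encodes a small SR protein that also acts in mRNA export, measured 157, 166, 146 and 153 CPM in Tie1-WT and 134, 121, 134, 122 and 146 CPM in Tie1-CR. Only Tie1-CR replicate 5 reached the Tie1-WT range, and the difference was -0.24 log2 (SE 0.06; limma adjusted p = 0.0567, and 0.035 without that library). Srsf7, a close relative of Srsf3, measured 156 ± 7.91 CPM (SD, n = 4) and 133 ± 13.6 CPM (SD, n = 5), a difference of -0.24 (limma adjusted p = 0.0914). Srsf3 has near-identical copies in the genome (at least 95% over 200 bases in 4 other annotated genes), and Srsf5 has 1, so reads could be split between copies. Srsf4, Srsf6, Srsf10 and Srsf11 had differences between -0.11 and -0.02, and Srsf9 was the only SR gene above 0, at 0.01. None of these passed.

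Among the CLK kinases, Clk1 fell and its relatives did not pass. Clk1, whose own transcripts are known to retain introns, lies on chromosome 1 from 58410189 to 58424066. It measured 296, 315, 290 and 269 CPM in Tie1-WT and 219, 248, 244, 229 and 258 CPM in Tie1-CR, so the genotypes did not overlap, though 258 and 269 CPM stood close. Clk1 fell by 0.29 log2 (SE 0.06; limma adjusted p = 0.029), and the means were 292 ± 18.95 CPM (SD, n = 4) in Tie1-WT and 239 ± 15.4 CPM (SD, n = 5) in Tie1-CR. The call ended when any of 4 libraries was left out, which were Tie1-WT replicates 1, 2 and 3 and Tie1-CR replicate 4 (limma adjusted p = 0.105, 0.0879, 0.0653 and 0.0665), and when base composition was corrected for, as given further on (-0.19 log2, 0.10).

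Clk2 had the largest positive difference of all 60 genes. It measured 113, 114, 118 and 117 CPM in Tie1-WT and 130, 135, 112, 133 and 121 CPM in Tie1-CR, so 4 of the 5 Tie1-CR libraries lay above the Tie1-WT range and 1 lay below it. The difference of 0.13 log2 (95% interval -0.0022 to 0.25) did not pass (limma adjusted p = 0.233). Clk3 and Clk4, kinases of the same family, differed by -0.05 and -0.09, with adjusted p values of 0.633 and 0.466 in the same test. Whether Clk1 differed from its relatives in response was not tested.

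**Figure D2:**
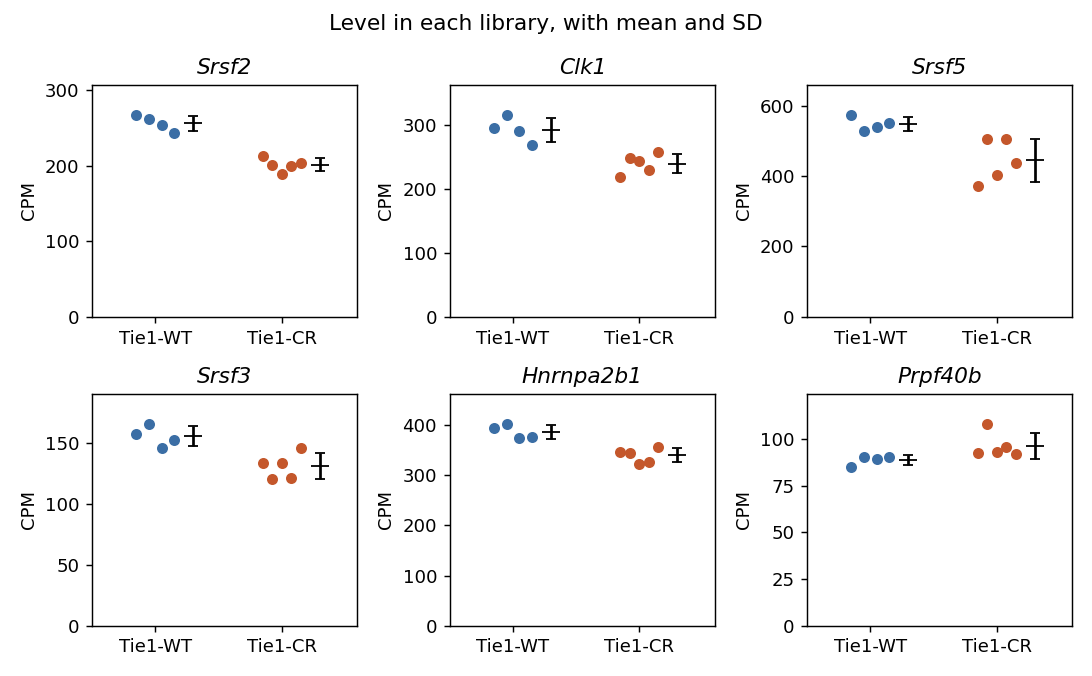
CPM of 6 genes in each of the 9 libraries (points, Tie1-WT blue and Tie1-CR orange), with the mean and SD as black marks beside them and axes that start at 0. Srsf2, Clk1, Srsf5 and Hnrnpa2b1 separate downward, Prpf40b upward, and Srsf3 overlaps in 1 library.

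None of the 18 hnRNP genes passed, but 16 lay below 0, with a median of -0.10 log2. In 7 of the 18 (38.9%) the genotypes did not overlap, with Tie1-CR lower, against 6.74% of all genes. These 7 were Hnrnpa2b1, Hnrnpd, Hnrnpdl, Hnrnph1, Hnrnpk, Hnrnpu and Hnrnpul2. With the GC and length correction only 1 of all 60 members still separated downward, and the share over all genes was not counted there. Hnrnpa2b1, which encodes a core protein of hnRNP particles and has known roles in RNA sorting, came closest to the threshold. It measured 395, 403, 374 and 376 CPM in Tie1-WT and 348, 345, 323, 328 and 357 CPM in Tie1-CR, a difference of -0.19 log2 (SE 0.05; limma adjusted p = 0.0591). With quantile normalization and with library weights it passed (limma adjusted p = 0.0373 and 0.0368), and the GC and length correction left a difference of -0.10 (0.277).

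Hnrnpd, whose protein (AUF1) binds AU-rich elements of mRNAs, measured 90.0, 89.1, 87.6 and 91.8 CPM in Tie1-WT and 82.4, 74.0, 80.7, 77.5 and 84.5 CPM in Tie1-CR. Its difference of -0.17 log2 (SE 0.05) had a limma adjusted p of 0.0736, and its relative Hnrnpdl differed by -0.17 (0.128). Hnrnpul2, related to the nuclear scaffold protein of Hnrnpu, measured 29.2 ± 0.889 CPM (SD, n = 4) and 25.6 ± 1.37 CPM (SD, n = 5), a difference of -0.19 (limma adjusted p = 0.0734). Hnrnpu itself and Hnrnpk, a poly(C)-binding protein gene, were shifted less, by -0.08 and -0.09 (limma adjusted p = 0.326 and 0.301), although their genotypes did not overlap either. Their lowest Tie1-WT and highest Tie1-CR libraries were 569 and 559 CPM for Hnrnpu and 244.2 and 243.6 CPM for Hnrnpk.

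Hnrnpa0, a protein gene of the A/B group, had the lowest difference of the subfamily, -0.20 log2 (95% interval -0.35 to -0.05; limma adjusted p = 0.109). Its libraries measured 70.7, 74.7, 80.3 and 71.2 CPM in Tie1-WT and 74.0, 60.2, 63.7, 65.1 and 59.7 CPM in Tie1-CR. Tie1-CR replicate 1 lay inside the Tie1-WT range, and without it the gene passed (limma adjusted p = 0.0364). The 2 hnRNP genes above 0 were Hnrnpf and Hnrnpul1, both at 0.03 with adjusted p values of 0.811 and 0.71 in the limma fit.

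The SF3 genes, which encode the branch point recognition proteins of the U2 particle, had the median closest to 0. It was -0.02 log2, just above that of all genes, with 7 of 9 below 0, none past the threshold and none with separated genotypes. With scaling by trimmed means (TMM) this median turned to 0.002. Sf3b1, the scaffold subunit that grips the branch helix, measured 498, 477, 472 and 478 CPM in Tie1-WT and 475, 493, 489, 473 and 466 CPM in Tie1-CR. The ranges overlapped, and the 95% interval of the difference ran from -0.10 to 0.09 log2. Sf3b2, its partner, measured 247 ± 7.25 CPM (SD, n = 4) and 247 ± 3.9 CPM (SD, n = 5), with a 95% interval of the difference from -0.09 to 0.09. The extremes of the subfamily were Sf3b6, which contacts the branch point adenosine, at -0.12 and Sf3a2 at 0.07 (limma adjusted p = 0.303 and 0.413). Sf3a3, a subunit of the same particle, differed by -0.08 (limma adjusted p = 0.328).

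The Snrp genes, which encode proteins of the small nuclear ribonucleoproteins, also lay near the median of all genes, at -0.03 log2, with 4 of 7 below 0 and none past the threshold. This median turned to 0.03 with quantile normalization, 0.07 with the GC and length correction and 0.025 with a minimum mean of 20 CPM, and to between 0.0024 and 0.0183 when 1 of 3 libraries was dropped (replicates 3 and 4 of Tie1-WT and replicate 3 of Tie1-CR). Snrpb, a core Sm protein gene and the member with the highest level per kilobase of exon, measured 326, 322, 286 and 331 CPM in Tie1-WT and 349, 317, 300, 334 and 348 CPM in Tie1-CR. Its difference was 0.06 (95% interval -0.08 to 0.20; limma adjusted p = 0.603). Snrpa, the U1 protein A gene, differed by 0.04 and Snrpd3, another Sm gene, by -0.13 (limma adjusted p = 0.741 and 0.199). Snrpb2, the U2 protein B gene, differed by -0.13 (limma adjusted p = 0.297). Snrpb2, Snrpc and Snrpe were the least read members, with means of 10.9 to 14.9 CPM in the genotypes.

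Among the 13 Prpf genes the median was -0.08 log2, with 10 below 0 and none past the threshold. Prpf8, the gene of the U5 protein at the catalytic centre, measured 169, 167, 170 and 180 CPM in Tie1-WT and 161, 181, 192, 182 and 180 CPM in Tie1-CR, a difference of 0.06 (95% interval -0.06 to 0.18). Prpf40b, a U1-associated factor gene, was the only member with every Tie1-CR library above every Tie1-WT library, and it did not pass. It measured 85.1, 90.7, 89.3 and 90.3 CPM in Tie1-WT and 92.6, 108, 93.0, 95.7 and 92.1 CPM in Tie1-CR, a difference of 0.11 (SE 0.05; limma adjusted p = 0.253). Prpf39, another U1-associated factor gene, differed by -0.13 (limma adjusted p = 0.195). Prpf6, a tri-snRNP bridging factor gene, separated downward with a small difference of -0.06, with 102 ± 0.757 CPM (SD, n = 4) in Tie1-WT and 97.9 ± 2.36 CPM (SD, n = 5) in Tie1-CR.

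**Figure D3:**
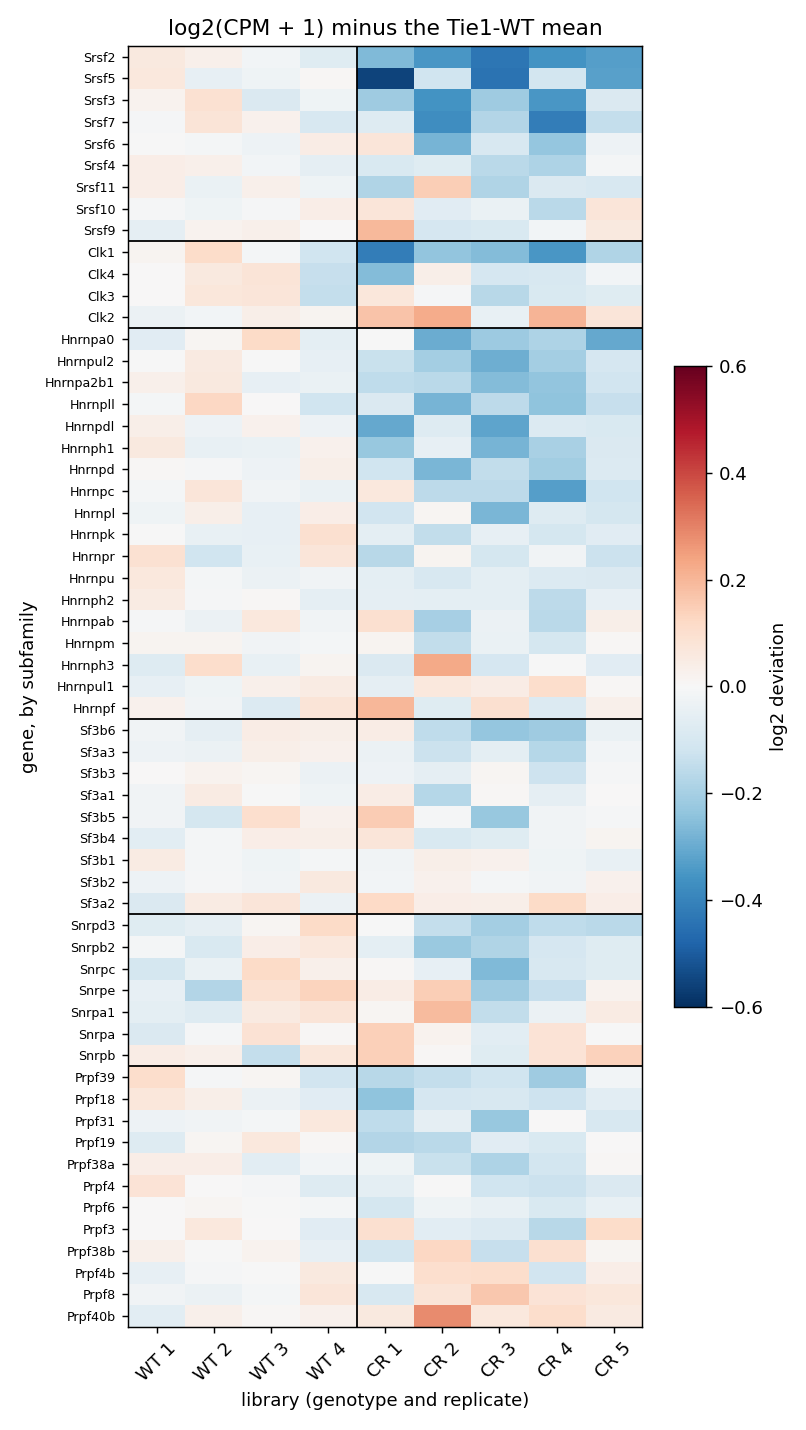
Deviation of the members, all but 1 Prpf gene, from their Tie1-WT means, in log2(CPM + 1), for the 4 Tie1-WT and 5 Tie1-CR libraries, with subfamilies set apart by lines. Most Srsf and Hnrnp rows are blue in the Tie1-CR columns, with a median of the 60 genes between -0.11 and -0.04 in those libraries and between -0.01 and 0.00 in Tie1-WT. The Sf3 rows hold both signs there, from -0.23 (Sf3b6, Tie1-CR replicate 3) to 0.15 (Sf3b5, Tie1-CR replicate 1).

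Seen by library, the median deviation of the 60 genes from their Tie1-WT mean was -0.04, -0.07, -0.11, -0.11 and -0.04 log2 in Tie1-CR replicates 1 to 5. Over all genes the same medians ran from -0.04 to -0.02. The Srsf medians ran from -0.18 to -0.09 and the Hnrnp medians from -0.13 to -0.07, below every Tie1-WT library in both subfamilies, as were the medians of all 60 members. Over all genes the highest Tie1-CR median, -0.0173, all but met the lowest Tie1-WT median, -0.0172. Deviations were taken from the Tie1-WT mean, which by itself keeps the Tie1-WT medians around 0. The Sf3 medians, at -0.05 to 0.04, overlapped with Tie1-WT.

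The members varied more among the Tie1-CR libraries than among the Tie1-WT libraries. The median SD was 0.09 against 0.05 log2, where all genes had 0.107 against 0.0842. The SD was larger in Tie1-CR for 47 of 60 members (78.3%), as for 63.8% of all genes. After the genotype means were subtracted, the first principal component of the 60 genes held 39.6% of the remaining variance. It set Tie1-CR replicates 2 and 4 (scores 0.63 and 0.44) apart from replicate 1 (-0.72), with the Tie1-WT libraries between -0.09 and 0.06. Srsf5, Srsf11, Hnrnph3 and Prpf38b had the highest loadings, and Srsf7, Srsf6, Hnrnpab and Hnrnpc the lowest.

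Of the 9 Srsf genes, Srsf5 and Srsf11 had positive loadings and the other 7 negative ones, with Srsf2 and Srsf4 near 0 (-0.05 and -0.03). Srsf11 measured 177, 222, 177, 188 and 188 CPM in Tie1-CR replicates 1 to 5, low in the first and the third, as Srsf5 was. Srsf6, an SR protein gene of exon inclusion, measured 167, 130, 148, 134 and 155 CPM, high in the first and low in the second and the fourth. Neat1, a nuclear-retained RNA, moved with the former genes at 244, 439, 223, 321 and 297 CPM, and so did Malat1, another nuclear RNA, at 670, 962, 695, 870 and 777 CPM. Depth moved the other way, with 54408116, 38208696, 53048957, 44346998 and 51482114 counted reads. The part of nuclear RNA or depth in this pattern was not tested.

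**Figure D4:**
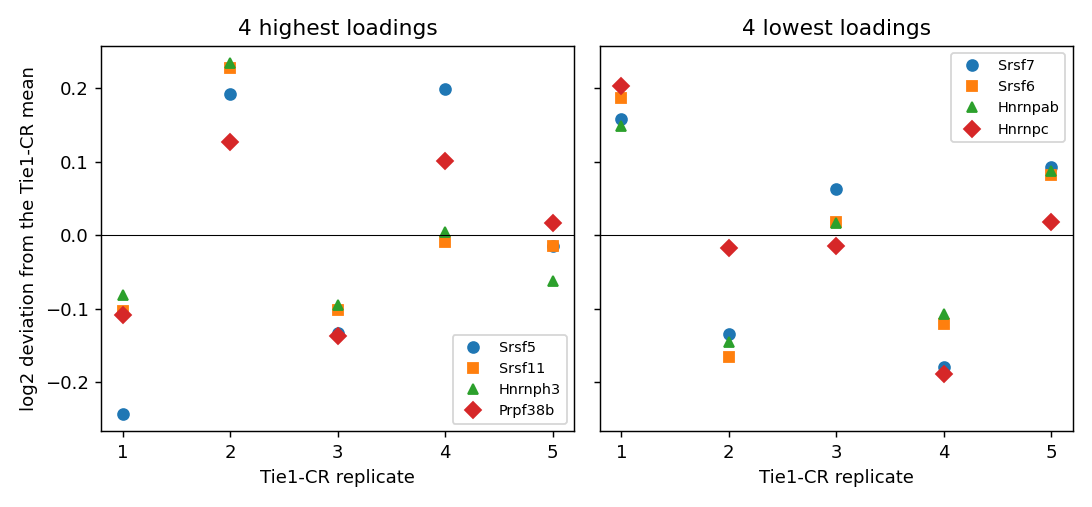
Deviation in log2(CPM + 1) from the Tie1-CR mean in the 5 Tie1-CR libraries, for the 4 genes with the highest (left) and the 4 with the lowest (right) loadings on the first component within genotypes. The left genes are low in replicates 1 and 3, where the right genes lie between -0.02 and 0.20.

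Levels can be compared between genes only after division by exon length. In Tie1-WT, Snrpb had 160 CPM per kilobase of annotated exon, Srsf5 137, Srsf2 86.8 and Hnrnpa2b1 58.7. In Tie1-CR the same 4 genes had 167, 111, 68.2 and 51.6 CPM per kilobase in that order, with Hnrnpab at 54.4 above Hnrnpa2b1. The lowest were Snrpc at 2.28 and Hnrnpr at 3.11 CPM per kilobase in Tie1-WT.

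The members shared annotation features that the choice of genes did not use. In the GENCODE annotation of GRCm38, 33 of the 60 (55.0%) had a transcript marked for nonsense-mediated decay, against 31.1% of the protein-coding genes in the table. A retained-intron transcript was annotated for 46 members (76.7%) against 63.9%, and both kinds for 30 (50.0%) against 25.6%. Clk1 had 7 retained-intron and 2 decay transcripts, and Srsf2 had 1 and 2 of these. Of the 60 members, 20 share exon bases with a gene on the opposite strand and 13 have a near-identical copy elsewhere. Gene-level reads do not separate these transcripts, so a change in productive mRNA and a change in unproductive isoforms cannot be told apart.

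Base composition moved with the differences across all genes. When genes were split into 4 bins of equal size by GC content, the median difference was -0.09 log2 in the bin with the lowest GC content (at most 44.9%) and 0.06 in the bin with the highest. The members were poorer in GC than the other genes, with a median of 45.7% against 49.8% of protein-coding genes, and 28 of the 60 stood in the lowest bin. Within that bin the members' median was -0.12, within the second -0.07, within the third -0.05 and, for the 5 members in the highest, 0.07.

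After splines of GC content and exon length were removed from each library, the members' median was -0.01 log2 against 0.01 over all genes. The Hnrnp median went from -0.10 to -0.03, the Prpf median from -0.08 to -0.01, and the Srsf median from -0.11 to -0.10. Members whose genotypes separated downward went from 11 to 1, and the share over all genes was not counted under that correction. Srsf2 still passed at -0.30 log2 (limma adjusted p = 0.0115), while Srsf5 and Srsf3 were at -0.20 and -0.15 (0.301 and 0.209). With TMM scaling the members' median was -0.06 against 0.00 over all genes, and both Srsf2 and Clk1 passed. There 7 members separated downward, again with no count over all genes.

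**Figure D5:**
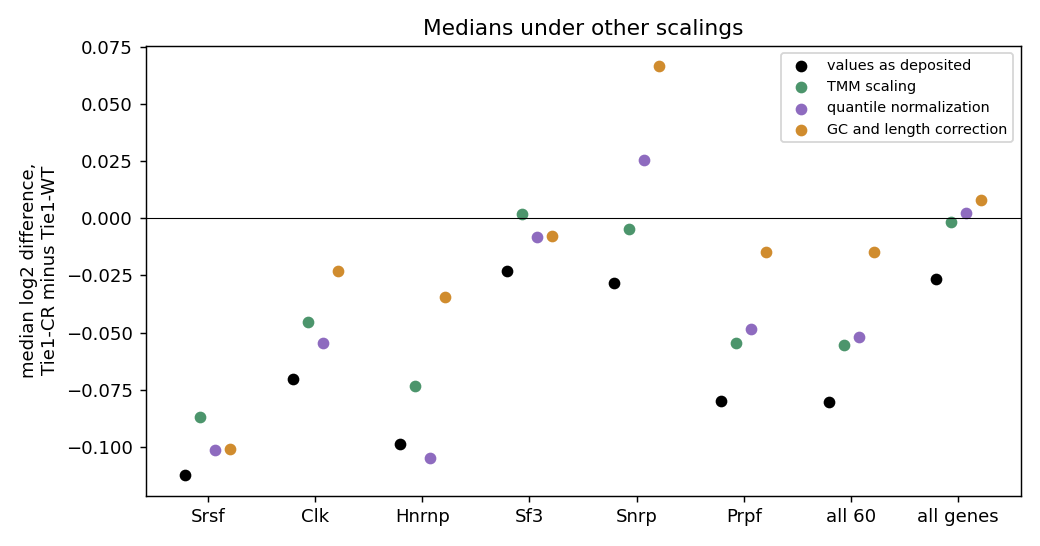
Median log2 difference (Tie1-CR minus Tie1-WT) of each subfamily, of all 60 genes and of all genes tested, under the values as deposited and 3 other scalings. The Srsf median lies between -0.11 and -0.09 in each, the Hnrnp and Prpf medians are nearer 0 with the GC and length correction, the Sf3 median is above 0 with TMM only, and the Snrp median is above 0 with quantile normalization and the GC and length correction.

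Of 170 further splicing genes in 9 listed classes, 146 were measured, of which 0 rose (against 1.28% of all genes) and 3 fell (against 2.77%). Their median was -0.05 log2, and 105 lay below 0 (71.9%, against 58.5% of all genes).  Rbm3, a cold-inducible RNA-binding protein gene, measured 25.2, 27.4, 25.6 and 24.4 CPM in Tie1-WT and 16.6, 19.4, 19.8, 18.2 and 20.4 CPM in Tie1-CR. Rbm3 fell by 0.43 log2 (SE 0.07; limma adjusted p = 0.00861) and passed under all 19 alternatives. Its groups did not overlap.

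Tra2b, an SR-like activator of exon inclusion, measured 51.2, 54.0, 46.0 and 48.5 CPM in Tie1-WT and 40.7, 35.4, 37.6, 35.0 and 41.8 CPM in Tie1-CR. Tra2b fell by 0.38 log2 (SE 0.07; limma adjusted p = 0.0135), but its call ended without Tie1-WT replicate 1 (0.0643) and with the GC and length correction (-0.29 log2, 0.0569). Qk, the quaking gene of endothelial and glial splicing, fell by 0.20 log2 (limma adjusted p = 0.0362), with means of 641 ± 8.404 CPM (SD, n = 4) in Tie1-WT and 556 ± 21.2 CPM (SD, n = 5) in Tie1-CR. Its call ended in 11 of the 19 alternatives, with adjusted p values up to 0.182. By class, the RNA-binding regulators had a median of -0.08 over 41 genes with 2 falls, the SR-related proteins -0.06 over 21 with 1 fall, and the helicases -0.05 over 15 with none. The SR kinases and regulators had -0.05 over 9, the complex proteins of the catalytic spliceosome -0.04 over 31, the Snrnp genes -0.03 over 5, the Sm-like and SMN genes -0.02 over 16, the exon junction genes -0.06 over 4 and the U2AF genes 0.01 over 4, with none past the threshold. In those classes the genes with the largest differences were the SR regulator Clasrp at 0.15, Cwc27 at -0.25, the helicase gene Ddx42 at -0.17, Snrnp27 at -0.11, Lsm6 at -0.22, the exon junction gene Magoh at -0.25 and Zrsr2 at -0.18, with limma adjusted p values between 0.0742 and 0.43.

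The libraries held an estimated 38208696 to 54408116 counted reads, so a gene at 10 CPM was read about 382 to 544 times. All 8 endothelial markers were measured, with a summed level of 12674 to 14197 CPM in Tie1-WT and 13730 to 14088 CPM in Tie1-CR, and 1 of them, the transcription factor gene Erg, fell. The 5 measured of 6 type 2 pneumocyte markers summed to 115 to 465 CPM and 288 to 627 CPM, with 1 past the threshold as higher. The 3 of 4 airway markers summed to 5.93 to 16.6 CPM and 15.7 to 38.4 CPM, also with 1 higher, Cyp2f2. Each gene of the table reaches at least 10 CPM in some library. Cyp2f2 did so only in Tie1-CR (highest library 15.0 CPM, against 6.33 CPM in Tie1-WT), as did Foxj1 (11.3 against 5.21 CPM). The markers Scgb1a1 (airway), Sftpb (pneumocyte) and Pf4 (platelet) also reached that level only in Tie1-CR, and Cd68 (leukocyte) only in Tie1-WT. Such genes are in the table only through the genotype where they are high, which favours that direction. This limit holds for the rise of Cyp2f2 and for the fall of Cd68 given next. Among leukocyte markers 2 of 8 were measured, with 30.6 to 76.9 CPM and 60.2 to 118 CPM in sum, where Cd68 fell and Lyz2 was at 37.8 ± 21.8 CPM (SD, n = 4) and 76.2 ± 21.9 CPM (SD, n = 5) without passing (limma adjusted p = 0.0669). The 3 type 1 pneumocyte markers of 4 summed to 170 to 289 CPM and 158 to 235 CPM. The 3 fibroblast markers of 5 summed to 15.4 to 60.3 and 10.6 to 53.6 CPM, and the 2 platelet markers of 3 to 9.83 to 41.4 and 30.2 to 39.8 CPM. Of 4 pericyte and smooth muscle markers, Acta2 and Myh11 summed to 21.0 to 40.7 and 15.0 to 54.8 CPM. Pdgfrb and Cspg4 of that list were not measured. No measured marker was at 0. The 6 mitochondrial and nuclear RNAs listed for RNA quality summed to 2382 to 2784 CPM in Tie1-WT and 1988 to 2414 CPM in Tie1-CR. Of these, mt-Nd1 differed by -0.27 log2 with separated genotypes, mt-Co1 by -0.33 and Malat1 by -0.31, about as much as Srsf2 and Clk1, and none passed (limma adjusted p = 0.0682, 0.0910 and 0.128). In bulk RNA, fewer cells of a type and less RNA per cell cannot be told apart, and the part of other cells or RNA quality in the differences above was not tested.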

How the data were processed

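RNA was sequenced from 9 libraries of mouse lung endothelial cells (4 Tie1-WT, 5 Tie1-CR). PicoPure was used for extraction and SMARTer Ultra Low for library construction, per the labels' protocols. Alignment software STAR 2.7 and genome builds GRCm38.p6 and mm10 are listed in the submitters' processing notes. The sources used here give no counting tool, strand setting or gene filter. The authors deposited 1 table under the name TPM. Its deposited values have the form of CPM, since in each library 100% of them come out as whole reads within 0.01 reads, and depth was estimated from that. A separate check found this step for only part of the low values, so no count test was run. Each gene reaches at least 10.0 CPM in some library, so lower genes could not be assessed.

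Values were used as log2(CPM + 1), which understates changes of low genes. A minimum of 1 CPM in 4 libraries removed 0 genes. The 2-sided test was limma 3.58.1 with a mean-variance trend under R 4.3.3, tested on simulated data. No pair of libraries of a genotype agreed within counting error (lowest chi-square per degree of freedom 21.4). Positions, exon lengths, GC content and transcript classes came from GENCODE M21, which matched 9048 of 9277 symbols (97.5%) and all 60 members. Near-identical copies are other annotated genes with at least 95% identity over 200 bases. Plots used matplotlib 3.10.9.

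The members, lists and motifs were chosen with earlier results of these data known. The named members are those past the threshold, the 4 Clk genes, the 2 highest and 2 lowest differences and the most-read gene of each other subfamily, and genes listed for their roles, of which Srsf1, Hnrnpa1 and Snrpn were not analysed here. Hnrnpdl, Prpf6, Srsf4, Srsf6, Srsf10, Srsf11, Snrpc, Snrpe, Hnrnpr and the members named only in counts or loadings were chosen after their values were seen. The values of 1 Prpf gene are not reported here, though it counts among the 60. Alternatives covered the pseudocount, the filter, TMM and quantile scaling, variance models, a replicate block and each library left out. The GC and length correction (natural splines, 4 degrees of freedom) was chosen after seeing the data.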

Additional observations from a re-analysis of the deposited data

Results flagged for a closer look

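Of 60 sets of values checked (30 named members in each genotype), 2 held a library far from the others. Chance flags about 1 in 20 such sets, or 3 of 60. Prpf40b measured 108 CPM in Tie1-CR replicate 2, where the next highest Tie1-CR library had 95.7 CPM. Snrpd3 measured 38.2 CPM in Tie1-CR replicate 1, where the next highest had 34.5 CPM.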

How the results depend on the processing

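The count of members that rose was 0 under all 19 alternatives. The count that fell, 2, was 4 with library weights and 1 with the GC and length correction, and ran from 1 to 3 with each library left out in turn. The members' median of -0.08 log2 was -0.055 with TMM scaling, -0.052 with quantile normalization, -0.015 with the GC and length correction and -0.0856 to -0.0648 with a library left out. Members separated downward, 11, were 7 with TMM scaling, 17 with the replicate block (which also drops Tie1-CR replicate 5, and 17 without that library alone), 1 with the GC and length correction and 11 to 17 with a library left out. Those separated upward were 1 to 2. Leaving out a library can only keep or raise these counts, also with the replicate block, so their lower ends were fixed in advance. Separation over all genes was not counted under the alternatives. Further splicing genes that fell, 3, were 5 with library weights and 1 to 4 with a library left out, and those that rose were 0 to 1. Over all genes, 119 higher and 257 lower, there were 182 higher with TMM scaling, 183 higher with quantile normalization, 245 and 416 with library weights, 163 lower with the GC and length correction, and 6 to 110 higher and 54 to 245 lower with a library left out. The replicate block (replicates 1 to 4 of both genotypes) gave 37 higher and 145 lower genes and kept the calls of Srsf2 and Clk1. Same-numbered libraries deviated with correlations of -0.14, 0.00, -0.06 and 0.19. Differently numbered libraries were not compared, so whether the numbers pair the libraries was not tested. Of 40 named genes, these changed sign without passing. Sf3b1 was at 0.0192 with TMM scaling, 0.0034 with the replicate block and 0.0744 with the GC and length correction. Sf3b2 was at -0.0047 and Srsf9 at -0.0038 with the block, and all 3 block values equal those without Tie1-CR replicate 5 alone. The GC and length correction put Sf3b2 at -0.0239, Clk4 at 0.0163, Hnrnpu at 0.0094, Sf3a2 at -0.0040 and the Snrp median at 0.0665. With each library left out in turn, Sf3b1 ran from -0.0164 to 0.0104, Sf3b2 from -0.0090 to 0.0217, Srsf9 from -0.0383 to 0.0360 and Hnrnpf from -0.0077 to 0.0631. The cause was not tested. At 10 CPM, near the lowest members, a gene had 382 to 544 reads per library.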
